A study of Homo sapiens with 3 samples.

Results

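Ribosome biogenesis and RNA exosome genes were examined in LNCaP cells exposed to bufalin. Members were taken by symbol: every annotated gene whose symbol starts with NOP, NOL, UTP and a digit, RRP, POLR1 or EXOSC, and a fixed set of further nucleolar genes (NCL, NPM1, FBL, DKC1, GAR1, RRS1, WDR43, WDR12, PES1, BOP1, MYBBP1A, NOB1, MRTO4, GNL3, PPAN, LYAR and BYSL). The rule gave 61 of 8661 named genes, measured by 84 probes. A gene with several probes was represented by the probe with the highest mean deposited intensity over the 3 arrays. RefSeq holds 74 protein-coding genes that match the rule, and 13 of them are not named here, among them NPM1, GNL3, NOP10, WDR43 and POLR1A.

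Ribosomes are assembled in the nucleolus. RNA polymerase I transcribes a long precursor RNA, small nucleolar ribonucleoproteins (snoRNPs) guide its chemical modification, and successive sets of assembly factors fold, cut and trim it into the small and the large ribosomal subunit. The RNA exosome is a barrel of proteins that feeds RNA to 3′ exonucleases and trims or degrades precursor RNA. Growing cells spend much of their transcription on this pathway, and the transcription factor MYC is known to activate many of its genes.

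LNCaP cells are an established human line of prostate cancer that came from a lymph node metastasis, and bufalin is a steroid from toad venom that inhibits the sodium pump. Cells were kept for 24 h with ethanol as the vehicle, with 10 nM bufalin or with 20 nM bufalin, in medium with serum, and total RNA of each was hybridised to 1 Illumina bead array. There is thus 1 array a group: nothing below has a replicate check, no test between treatments was made, and the number of arrays limits the precision. A whole-culture measurement also cannot tell fewer expressing cells from less RNA per cell.

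Levels are given as normalized signal, the deposited intensity after background correction, an offset of 16 and quantile normalization, and fold changes are log2 differences of that signal. A gene counted as detected in a comparison when the detection p-value of its probe was below 0.01 on at least 1 of the 2 arrays, and the size threshold was 2-fold. Gene names exist here only for probes that the deposited value table holds, and all but 1 of those 13753 probes met a filter on detection and on a difference of 10% or more from the vehicle array at 10 nM or at 20 nM, so the counts hardly cover genes with small differences. Of the 61 members, 55 were detected on all 3 arrays, 3 on 2 arrays, 2 on 1 array and 1, MYBBP1A, on none. No member lay near the top of the signal range: the highest signal of any member was 22.3% of the highest on the arrays. Of 10 luminal prostate markers, 8 were named and 7 of them were detected on all arrays, the exception being KLK2, which was not detected at 20 nM. Their summed signal was 5352 with vehicle, 7847 at 10 nM and 8959 at 20 nM, an increase carried by TMPRSS2, without which it was 3924, 4280 and 3608. At 20 nM 4 of the 8 were below vehicle, 2 of them past 2-fold (KLK2 and STEAP2), 2 were past 2-fold upward (TMPRSS2 and FOLH1), and the median log2 fold change was -0.22. Of 11 basal, stromal and leukocyte markers 3 were named (VIM, ACTA2 and CD14), and CD14 was detected on the 20 nM array alone. The summed signal of these 3 was 1526, 2377 and 2141 in the same order, and the part of either marker list in the values below was not tested.

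With bufalin most of these genes were below vehicle at both doses, and more of them were past 2-fold at 20 nM than at 10 nM. At 20 nM against vehicle, 29 of 60 detected members (48.3%) were at least 2-fold lower, 0 were at least 2-fold higher and 31 were neither. Over all 8346 detected named genes, 16.6% were at least 2-fold lower and 14.7% at least 2-fold higher. The members' median log2 fold change was -0.93, beside -0.10 over all named genes, and 52 of the 60 lay below 0, beside 52.1% of all, and 8 lay above it, beside 47.9%. Values ran from -2.76 for the exosome cap gene EXOSC2 to 0.68 for RRP12, a small-subunit export factor. At the edge of the threshold, EXOSC4 (-1.03), NCL (-1.02) and LYAR (-1.01) were just past it, and NOP56 (-0.95), UTP14A (-0.90) and EXOSC1 (-0.88) just short of it. Sizes depend on the background model: without background correction 19 members were at least 2-fold lower, and the 10 no longer past the threshold were POLR1G, RRP9, BYSL, RRP15, NCL, LYAR, EXOSC4, EXOSC5, EXOSC9 and NOL3. Under that setting EXOSC2 stood at -1.57, RRP36 at -2.26 and MRTO4 at -1.10.

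**Figure D1:**
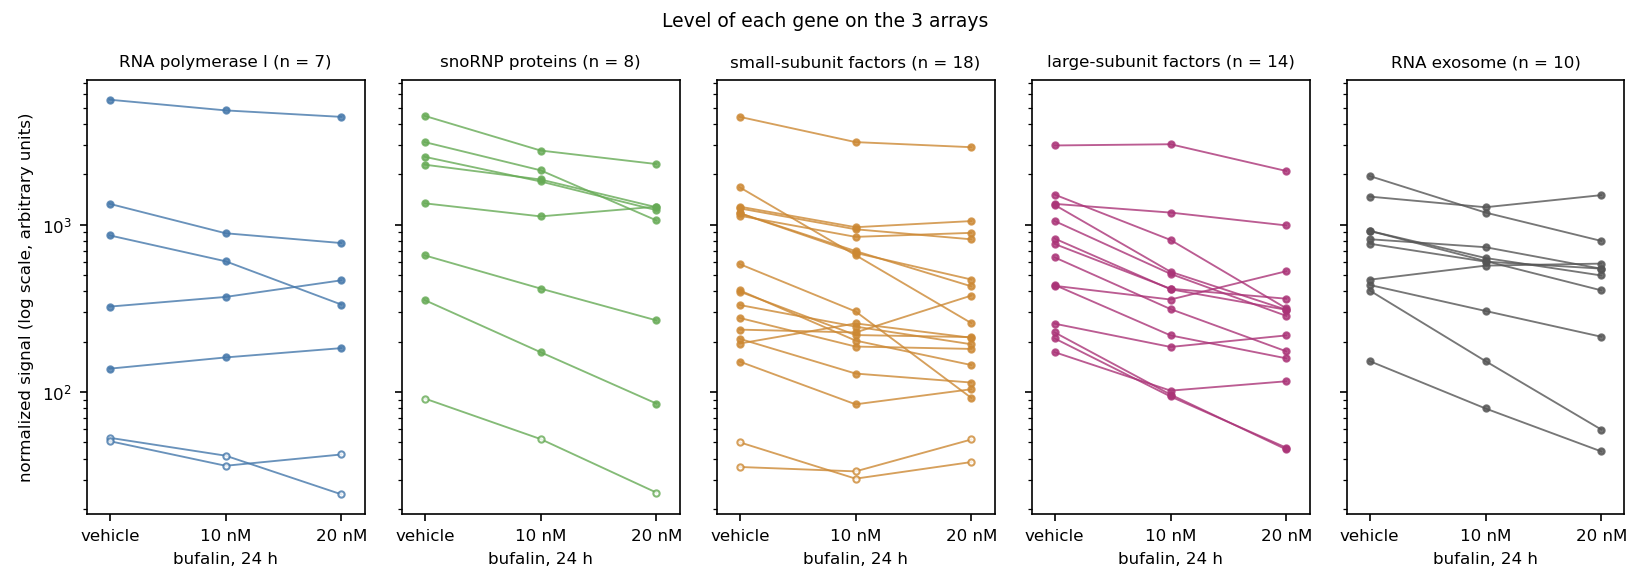
Normalized signal (log scale) of each gene on the vehicle, 10 nM and 20 nM arrays, 1 line per gene, in 5 groups by role. Open circles mark genes not detected on all 3 arrays. Most lines slope down, by the widest margin for EXOSC2 among the exosome genes (404, 153 and 59.7), while a few, such as POLR1H (324, 370 and 465), slope up.

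The promoters of these genes were searched for a motif of the MYC family. RefSeq promoter windows on GRCh38.p14 (250 bases before to 50 after a start) were matched for 51 members, 7 of them with several windows. Each was searched for the E-box CACGTG, the palindromic motif bound by MYC with MAX and by other factors of that class, which reads the same on both strands. It stood in 19 of 58 member windows (32.8%), against 9.85% of the windows of genes in the probe annotation and 7.26% of all 35116 windows. In 12 of the 19 members a motif lay in the 50 bases after the start. The windows below belong to the lowest member at 20 nM that has the motif and was detected on all 3 arrays, in each of 4 role groups, and then to the lowest pair of members without it, a choice made after the values were seen, with the E-box in capitals and otherwise in lower case, each read along its gene.
FBL, chr19:39846330-39846629, minus strand: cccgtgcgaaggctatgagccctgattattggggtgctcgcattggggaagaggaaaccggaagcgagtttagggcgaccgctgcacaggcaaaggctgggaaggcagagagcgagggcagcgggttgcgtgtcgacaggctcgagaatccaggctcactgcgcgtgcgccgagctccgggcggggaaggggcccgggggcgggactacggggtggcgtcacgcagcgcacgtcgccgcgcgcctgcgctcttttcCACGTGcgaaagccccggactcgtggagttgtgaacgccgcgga
BYSL, chr6:41921249-41921548, plus strand: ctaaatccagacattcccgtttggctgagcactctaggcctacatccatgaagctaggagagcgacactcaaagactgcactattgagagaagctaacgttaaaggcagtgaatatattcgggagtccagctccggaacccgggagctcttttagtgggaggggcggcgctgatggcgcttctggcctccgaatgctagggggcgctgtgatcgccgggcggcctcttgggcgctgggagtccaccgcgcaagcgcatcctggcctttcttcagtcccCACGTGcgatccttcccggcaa
MRTO4, chr1:19251555-19251854, plus strand: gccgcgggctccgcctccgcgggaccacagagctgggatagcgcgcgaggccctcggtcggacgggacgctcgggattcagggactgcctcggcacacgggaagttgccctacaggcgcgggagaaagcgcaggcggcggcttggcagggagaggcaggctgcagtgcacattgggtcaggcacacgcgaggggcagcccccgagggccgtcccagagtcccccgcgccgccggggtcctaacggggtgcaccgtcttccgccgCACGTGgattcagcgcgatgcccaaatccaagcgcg
EXOSC5, chr19:41397310-41397609, minus strand: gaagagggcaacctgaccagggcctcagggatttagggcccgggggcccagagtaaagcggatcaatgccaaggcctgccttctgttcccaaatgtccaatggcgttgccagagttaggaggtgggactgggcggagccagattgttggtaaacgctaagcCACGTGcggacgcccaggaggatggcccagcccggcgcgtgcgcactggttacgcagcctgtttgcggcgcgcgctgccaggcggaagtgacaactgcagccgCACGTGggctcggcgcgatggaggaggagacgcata
EXOSC2, chr9:130693510-130693809, plus strand: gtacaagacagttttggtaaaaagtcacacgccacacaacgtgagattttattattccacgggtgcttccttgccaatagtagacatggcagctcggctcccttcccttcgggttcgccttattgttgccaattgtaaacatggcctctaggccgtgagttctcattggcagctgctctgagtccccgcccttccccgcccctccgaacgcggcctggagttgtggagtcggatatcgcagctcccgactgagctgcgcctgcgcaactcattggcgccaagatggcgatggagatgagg
RRP36, chr6:43021373-43021672, plus strand: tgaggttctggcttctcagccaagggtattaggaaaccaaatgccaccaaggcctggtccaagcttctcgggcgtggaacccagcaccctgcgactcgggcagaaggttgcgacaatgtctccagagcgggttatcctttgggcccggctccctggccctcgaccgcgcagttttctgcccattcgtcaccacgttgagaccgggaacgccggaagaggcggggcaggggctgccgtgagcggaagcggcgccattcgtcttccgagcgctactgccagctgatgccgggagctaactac

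Counted from the start as base 1, the E-box began at base 7 in FBL, 29 in BYSL and 15 in MRTO4, and EXOSC5 held a second one that began 89 bases before the start beside one at base 15. EXOSC2 and RRP36, the members with the lowest fold changes of all at 20 nM, held none in these windows. Of 18 detected members with the motif, 10 were at least 2-fold lower at 20 nM, with a median log2 fold change of -1.06 and a range from -2.32 to 0.55. Of 32 without it, 14 were, with a median of -0.70 and a range from -2.76 to 0.52. The ranges overlap almost wholly. Counted by gene, the motif was found in 19 of 51 members (37.3%), beside 13.4% of the genes in the probe annotation. By role, it was found in 8 of 15 small-subunit genes, 3 of 6 snoRNP genes and 4 of 12 large-subunit genes. It was also found in 2 of 3 abundant nucleolar genes, 1 of 6 RNA polymerase I genes and 1 of 8 exosome genes, and not in NOL3.

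RNA polymerase I subunits split in direction. Of 7 detected subunits, 2 (28.6%) were at least 2-fold lower at 20 nM and 5 were neither, beside 16.6% lower and 14.7% higher of all named genes. The median of the 7 was -0.34 on the log2 scale. POLR1E, which pairs with POLR1G on the surface of the enzyme, had signals of 862 with vehicle, 604 at 10 nM and 333 at 20 nM. It was lower at each step, and its log2 fold change at 20 nM was -1.37. POLR1G had signals of 53.3, 41.7 and 24.5 in the same order and was not detected at 20 nM, so it was at least 1.29-fold lower there, although its value counts it among those past 2-fold. Without background correction its log2 fold change at 20 nM was -0.31. POLR1C and POLR1D, which RNA polymerase III shares, are described by their brightest probes. POLR1C had 1330, 888 and 776 (log2 fold change of -0.78 at 20 nM), and POLR1D had 5570, 4810 and 4400 (-0.34). For POLR1B, which forms part of the catalytic centre, the signal was 50.9 with vehicle, 36.3 at 10 nM (not detected) and 42.4 at 20 nM. Its log2 fold change at 20 nM was -0.26, and its other probe, detected on 1 array, gave -0.93.

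The remaining pair were higher. POLR1H, a small subunit involved in transcript cleavage, had signals of 324, 370 and 465 with vehicle, 10 nM and 20 nM, and a log2 fold change of 0.52 at 20 nM. All 3 of its probes were higher at 20 nM, the further ones by 0.93 and 0.92. POLR1F, part of the stalk that contacts the initiation factor RRN3, had 138, 161 and 183, with a log2 fold change of 0.41. Both genes were higher at each dose than at the one before, and both stayed under 2-fold.

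Among RNA exosome subunits, all 10 with EXOSC symbols were named. The cap and ring genes were mostly lower, while EXOSC10, the nuclease gene among them, was not. Outside the symbol rule, the nuclease gene DIS3 was not named here, and DIS3L was 2.48-fold lower at 20 nM. Of the 10, 5 (50%) were at least 2-fold lower at 20 nM, beside 16.6% of all named genes, and 5 were neither. The median of the 10 was -0.96 on the log2 scale. The 3 cap genes encode the RNA-binding entrance of the barrel. EXOSC2 had the lowest fold change of all members, with signals of 404 with vehicle, 153 at 10 nM and 59.7 at 20 nM. Its deposited intensities were 502.8, 254.7 and 156.7, so the unprocessed values ran the same way, and on the normalized scale it was 2.64-fold lower at 10 nM and 6.77-fold lower at 20 nM.

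EXOSC3 had signals of 1950, 1180 and 799 with vehicle, 10 nM and 20 nM (log2 fold change of -1.29 at 20 nM), and its other probe gave -1.01. EXOSC1 had 917, 632 and 497 (-0.88). All 3 cap genes thus lay lower at each dose than at the one before. The ring of 6 RNase PH-like subunits ranged from -1.80 to 0.03 at 20 nM, with a median of -0.81. EXOSC5 had signals of 153, 79.8 and 44.2 and was 3.47-fold lower at 20 nM, although without background correction its log2 fold change was -0.76. EXOSC9 had 918, 606 and 405 (2.27-fold) and EXOSC4 436, 305 and 214 (2.04-fold).

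The other ring genes differed less. EXOSC6 had 818, 733 and 545 (log2 fold change of -0.59 at 20 nM), EXOSC8 had 769, 601 and 546 (-0.49), and EXOSC7 had 1470, 1270 and 1500 (0.03). EXOSC7 was thus close to its vehicle level at 20 nM. EXOSC10, the nuclear exonuclease that docks on the barrel, had 469, 569 and 585, with log2 fold changes of 0.28 at 10 nM and 0.32 at 20 nM. It was the only exosome gene above vehicle at both doses.

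**Figure D2:**
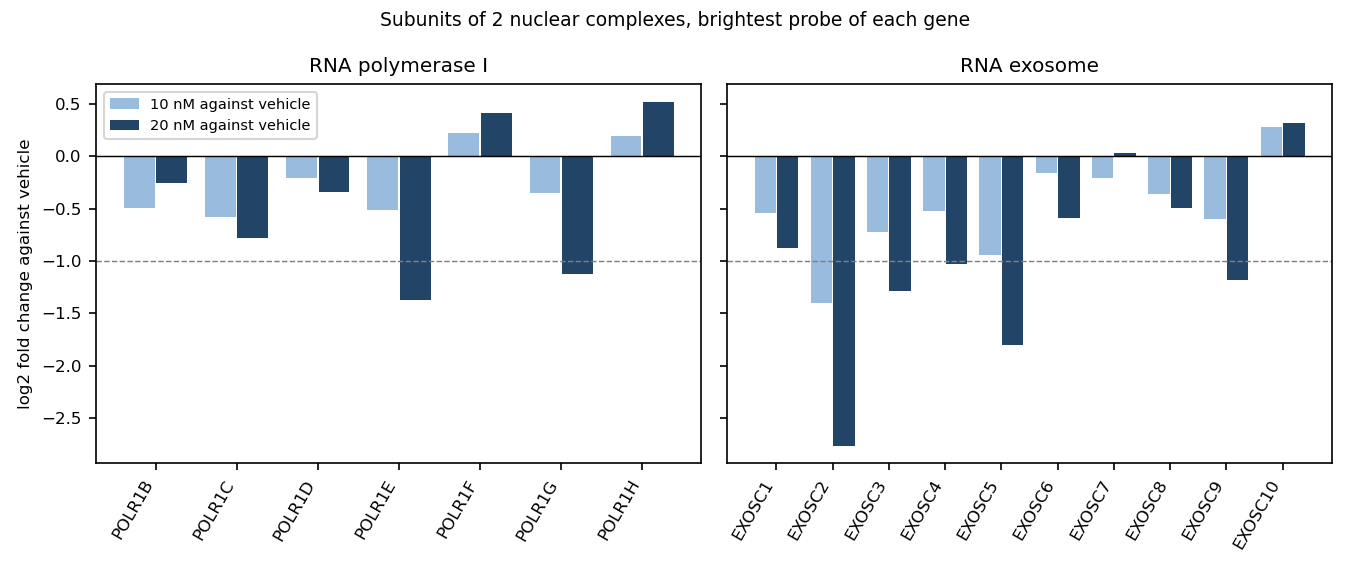
Log2 fold change against vehicle (vertical axis) of each named subunit of RNA polymerase I and of the RNA exosome at 10 nM (light bars) and 20 nM (dark bars), from 1 array each. The dashed line marks 2-fold lower. EXOSC2 reaches -2.76 at 20 nM, whereas POLR1F, POLR1H and EXOSC10 lie above 0 at both doses.

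All 8 genes for snoRNP proteins and their assembly factors were below vehicle at 20 nM, with a median log2 fold change of -1.18. Of them 5 (62.5%) were at least 2-fold lower, beside 16.6% of all named genes. NOPCHAP1, a chaperone for assembly of the box C/D class, had signals of 354 with vehicle, 173 at 10 nM and 85.4 at 20 nM. It was 2.05-fold lower at 10 nM and 4.15-fold lower at 20 nM. RRP9, a protein of the U3 snoRNP, had 91.5, 52.4 and 25.1 and was not detected at 20 nM. On this scale it was at least 2.21-fold lower there, but its log2 fold change without background correction was -0.59. FBL, fibrillarin, the methyltransferase of the box C/D class, had 3110, 2110 and 1060 and was 2.94-fold lower at 20 nM.

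The scaffold gene NOLC1 had signals of 655, 415 and 268 with vehicle, 10 nM and 20 nM, and was 2.45-fold lower at 20 nM. DKC1, dyskerin, the pseudouridine synthase of the box H/ACA class, had 2540, 1810 and 1220 (2.09-fold). These genes were all lower at 10 nM than with vehicle and lower again at 20 nM. NOP56 and NOP58, the paired core proteins around fibrillarin, had log2 fold changes of -0.95 and -0.84 at 20 nM. NOP56 had signals of 4460, 2770 and 2300 by its brightest probe, and its other probes gave -1.37 and -1.58. GAR1, a core partner of dyskerin, stood apart with 1340, 1120 and 1280, a log2 fold change of -0.07 at 20 nM, and its other probe gave 0.07.

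Of 18 genes of the small-subunit processome and of later small-subunit maturation, 5 (27.8%) were at least 2-fold lower at 20 nM and 13 were neither. Of all named genes, 16.6% were at least 2-fold lower and 14.7% higher. The median of the 18 was -0.61 on the log2 scale. The list held 2 of the 3 lowest members. RRP36, known from yeast as a factor of early precursor cleavage, had signals of 1670 with vehicle, 657 at 10 nM and 258 at 20 nM, and was 6.49-fold lower at 20 nM. RRP7A had 581, 303 and 92.2 and was 6.30-fold lower. RRP7A has a close pseudogene copy, so the source of its probe's signal is uncertain. BYSL, bystin, had 405, 203 and 145 (2.79-fold), and NOL6, a processome scaffold protein, had 1170, 695 and 428 (2.73-fold).

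UTP4, cirhin, of the early-binding UTP complex, had signals of 1170, 678 and 470 with vehicle, 10 nM and 20 nM and was 2.49-fold lower at 20 nM. Between -0.90 and -0.56 at 20 nM lay UTP14A, UTP23, UTP18, NOP14, UTP6, NOL7 and NOB1, the endonuclease gene for the last cut of small-subunit RNA. Of these, NOL7 had one of the brightest probes, with 4400, 3110 and 2900. UTP11 and NOL11 lay at -0.34 and -0.28. NOL10 had 50.1, 30.4 and 38.2, was detected with vehicle only, and was at least 1.21-fold lower at 20 nM on this scale. Its log2 fold change without background correction was -0.11.

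Above vehicle at 20 nM were RRP12, UTP25 and UTP14C. RRP12 had signals of 236, 227 and 377, near vehicle at 10 nM and with a log2 fold change of 0.68 at 20 nM. UTP25 had 35.7, 33.6 and 52.1, was detected at 20 nM only, and was at least 1.27-fold higher there on this scale. Its log2 fold change without background correction was 0.15. UTP14C, a retrogene copy of UTP14A, had 195, 257 and 211, highest at 10 nM (log2 fold change of 0.40) and at 0.12 at 20 nM, and signal from its close parent gene cannot be told apart here.

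Large-subunit assembly factors were mostly lower. Of 14, 9 (64.3%) were at least 2-fold lower at 20 nM, beside 16.6% of all named genes, and 5 were neither. The median of the 14 was -1.43 on the log2 scale. MRTO4, related to the ribosomal stalk protein it makes way for, had signals of 227 with vehicle, 96.6 at 10 nM and 45.4 at 20 nM. PPAN had 209, 94.1 and 46.5, and NOL12 had 1310, 523 and 310. All 3 were already at least 2-fold lower at 10 nM, with log2 fold changes of -1.23, -1.15 and -1.33. Without background correction MRTO4 and PPAN were short of 2-fold at 10 nM, at -0.70 and -0.63, and the other NOL12 probe was short of it at -0.73. At 20 nM these were -2.32, -2.17 and -2.08, although the other probe of NOL12 gave -1.17. PPAN shares transcripts with its neighbour P2RY11, so its probe may read both.

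The genes of the trimeric complex of PES1, BOP1 and WDR12, which acts in processing of large-subunit RNA, were all lower than with vehicle. BOP1 had signals of 1510, 810 and 316 with vehicle, 10 nM and 20 nM, PES1 had 436, 218 and 159, and WDR12 had 825, 411 and 310. At 20 nM they were 4.78-fold, 2.74-fold and 2.66-fold lower, and the other WDR12 probe gave a log2 fold change of -1.24. BOP1 had more of its difference between the doses, 2.56-fold lower at 20 nM than at 10 nM, than PES1 (1.37-fold) or WDR12 (1.33-fold). NOP16 had 1050, 508 and 285 (3.68-fold lower at 20 nM) and RRS1, which helps to place the 5S particle, had 637, 313 and 175 (3.64-fold). RRP15 was 2.12-fold lower.

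Less far from vehicle at 20 nM were RRP1 (log2 fold change of -0.57), NOP53 (-0.51), NOP2 (-0.43) and NOL8 (-0.23). NOP2, an RNA methyltransferase gene, had 3 probes that gave -0.43, -0.52 and -0.33. For NOP53, which recruits the exosome to large-subunit precursors, the signal was 2970 with vehicle, 3020 at 10 nM and 2090 at 20 nM, so it was below vehicle at 20 nM only. RRP8, a nucleolar methyltransferase gene, had 431, 357 and 527 and was the only large-subunit member above vehicle at 20 nM (0.29).

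The genes of the abundant nucleolar proteins nucleolin and LYAR were just past the threshold at 20 nM. NCL had signals of 4300, 2870 and 2120 with vehicle, 10 nM and 20 nM and was 2.03-fold lower at 20 nM. LYAR had 1040, 821 and 517 and was 2.01-fold lower. Their other probes gave log2 fold changes of -0.96 and -1.16. MYBBP1A was not detected on any array and has no fold here. NOL3 came in by its symbol alone: it encodes an inhibitor of apoptosis and has no known part in ribosome assembly. Its signals were 301, 172 and 103, 2.92-fold lower at 20 nM, and its other probe gave -0.64.

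**Figure D3:**
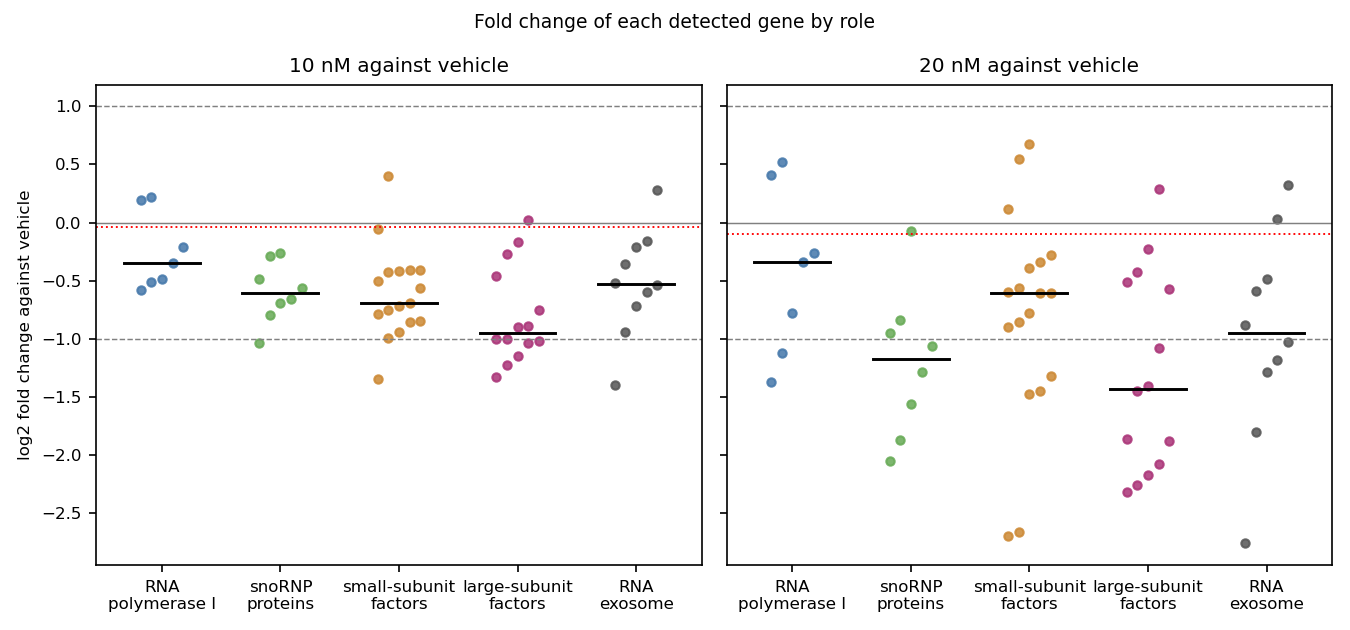
Log2 fold change of each detected gene at 10 nM (left) and 20 nM (right) against vehicle, in 5 role groups, from 1 array each. Black bars are group medians, dashed lines mark 2-fold, and the dotted red line is the median of all named genes (-0.04 and -0.10). Large-subunit factors have the lowest median in both panels (-0.95 and -1.43), and RNA polymerase I subunits the one nearest 0 (-0.35 and -0.34).

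At 10 nM against vehicle, 9 of 59 detected members (15.3%) were at least 2-fold lower and 0 were at least 2-fold higher, beside 3.27% and 6.46% of all 8233 detected named genes. Their median log2 fold change was -0.58, beside -0.04 over all. Below 0 lay 54 of 59 (52.1% of all), and above it 5 (47.9%). The 9 were EXOSC2 (2.64-fold), RRP36 (2.55-fold), NOL12 (2.51-fold), MRTO4 (2.35-fold), PPAN (2.22-fold), NOP16 (2.06-fold), NOPCHAP1 (2.05-fold), RRS1 (2.03-fold) and WDR12 (2.01-fold). Thus 6 of the 9 were large-subunit factors, and BYSL and PES1 lay just short, BYSL with a log2 fold change of -0.99. This make-up depends on the background model: only RRP36 (-1.21) and NOL12 (-1.16) stayed past 2-fold at 10 nM without background correction. The other WDR12 probe gave -0.57 at 10 nM. At a 1.5-fold threshold, 28 members were lower, or 40 at 20 nM, beside 16.3% and 31.4% of all named genes. Above vehicle at 10 nM were UTP14C, EXOSC10, POLR1F, POLR1H and NOP53, at 0.40 to 0.02.

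Between the doses, 8 of 59 members (13.6%) were at least 2-fold lower at 20 nM than at 10 nM and 0 were at least 2-fold higher, beside 4.86% and 2.73% of all 8195 detected named genes. Below 0 lay 45 (52.2% of all) and above it 14 (47.8%), and the median was -0.43, beside -0.03. RRP7A stood at 303 at 10 nM and 92.2 at 20 nM, a log2 fold change of -1.72. EXOSC2 and BOP1 followed at -1.36 each and RRP36 at -1.35, then MRTO4 (-1.09), RRP9 (-1.06), NOPCHAP1 (-1.02) and PPAN (-1.02). RRP9 was not detected at 20 nM and is at least 1.27-fold lower at its bound. On the other side, RRP12 exceeded its 10 nM level 1.66-fold at 20 nM, UTP25 at least 1.28-fold and RRP8 1.48-fold.

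Of the 55 members detected on all arrays, 41 were lower at 10 nM than with vehicle and lower again at 20 nM, an order found in 38.3% of all 7169 such genes. The opposite order, higher at each step, was found for 3 members (POLR1F, POLR1H and EXOSC10) and for 34.2% of all. Another 9 members were lowest at 10 nM, among them GAR1, NOB1, NOL11, UTP11, RRP1 and EXOSC7, and 2, NOP53 and UTP14C, were highest there. Split by mean signal over the 3 arrays, the brighter 27 of these members had a median log2 fold change of -0.88 at 20 nM. The dimmer 28 had one of -1.05. That mean includes the 20 nM array and members not detected on all arrays are left out, so the split cannot show whether starting level matters.

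Further probes gave a check on the chosen ones, within the same arrays. At 20 nM against vehicle, 22 further detected probes of 19 members were available, and 9 of them differed from the brightest probe by more than 0.5 in log2 fold change. The pooled standard deviation between probes of a member was 0.39, beside 0.44 over 1858 genes, which describes probes and not replicate cultures. Of the 22, 3 had the opposite sign. These belonged to POLR1D (0.65 against -0.34), NOL8 (0.65 against -0.23) and GAR1 (0.07 against -0.07), so the direction of these genes depends on the probe. UTP14A was farther below vehicle by its dimmer probe (-1.79 against -0.90), while POLR1E (-0.66 against -1.37) and POLR1C (-0.12 against -0.78) were nearer to it.

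**Figure D4:**
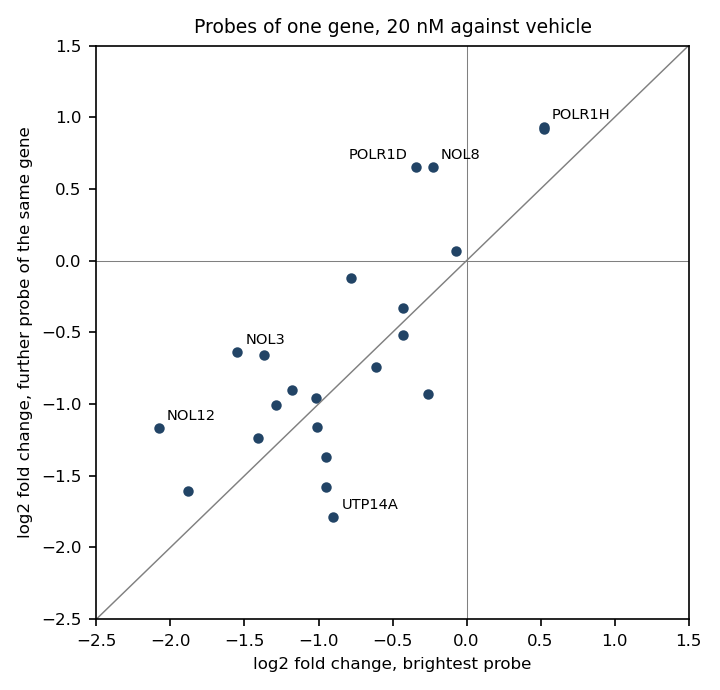
Log2 fold change at 20 nM against vehicle of the brightest probe of a gene (horizontal axis) and of each further detected probe of the same gene (vertical axis), 22 probes of 19 genes on 1 array pair. The diagonal marks equal values. Most points lie in the lower left quadrant, and POLR1D, NOL8 and, by a small margin, GAR1 lie above 0 by their further probe only.

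Other factors of ribosome assembly, from lists of genes outside the symbol rule, were also mostly below vehicle at 20 nM. A smaller share of them was past 2-fold downward than of the members (48.3%). Of 24 detected small-subunit factors, 7 (29.2%) were past 2-fold downward and 0 upward, which leaves 17, and the median log2 fold change was -0.79. Over all named genes, 16.6% were past 2-fold downward and 14.7% upward, with a median of -0.10. IMP4, of the U3 snoRNP, had signals of 3080, 1490 and 936 with vehicle, 10 nM and 20 nM and was 3.29-fold lower at 20 nM. TBL3 was not detected at either dose and was at least 1.80-fold lower at 20 nM. The kinase gene RIOK3 and NGDN were higher, at 0.80 and 0.46. Of 29 large-subunit factors, 8 (27.6%) were past 2-fold downward and 1 (3.45%) upward, and the median was -0.84. PWP1 had 1070, 517 and 285 (3.76-fold lower) and NIFK had 1290, 650 and 448 (2.88-fold lower), while SBDS, which acts in late maturation of the large subunit, had 666, 807 and 1400 and was 2.10-fold higher.

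The partners of RNA polymerase I and of the exosome were lower in some genes and higher in others. Of 7 polymerase I transcription factors, 1 was past 2-fold downward at 20 nM (14.3%), 1 upward (14.3%), and 5 in neither direction. Over all named genes these shares were 16.6% and 14.7%, so the 7 lay near them. RRN3, the initiation factor that POLR1F contacts, had signals of 350, 575 and 822 and was 2.35-fold higher, and TAF1B had 107, 66.2 and 49.6 and was 2.16-fold lower. The list's median was 0.08, or -0.04 under median scaling and -0.31 over all probes of a gene, so it has no settled direction. Of 10 exosome nucleases and cofactors, 2 were past 2-fold downward (20%, near the 16.6% of all named genes) and 0 upward (beside 14.7%). The list's median was 0.12. DIS3L, the cytoplasmic exosome nuclease gene, had 500, 397 and 202 (2.48-fold lower) and ZCCHC7 was 2.08-fold lower, while ZFC3H1 (0.93) and TENT4A (0.92) were higher by less than 2-fold.

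Genes named for the other polymerases and ribosomal protein genes were set beside these. The POLR2 list was taken by symbol and includes subunits that RNA polymerase I shares. Of its 16 genes, 3 (18.8%) were past 2-fold upward at 20 nM and 0 downward, beside 14.7% and 16.6% of all named genes. Their median log2 fold change was 0.17. POLR2A, the largest subunit of RNA polymerase II, had 329, 564 and 966. Of 8 RNA polymerase III subunits, 2 were past 2-fold downward, and the median was -0.72. POLR3G had 260, 131 and 54.4 and POLR3B had 319, 177 and 85.2. In the other direction, POLR3C had 235, 345 and 445 and POLR3A had 223, 321 and 390, which were 1.90-fold and 1.75-fold higher at 20 nM. Cytosolic ribosomal protein genes, the cargo of the assembly factors, had 2 of 55 lower (3.64%), 0 higher and a median of -0.13, and mitochondrial ribosomal protein genes had 13 of 71 lower (18.3%) and a median of -0.61. Some cytosolic ribosomal protein probes are close to the brightest on the arrays, and saturation could mask a difference there. None of these differences between lists was tested.

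**Figure D5:**
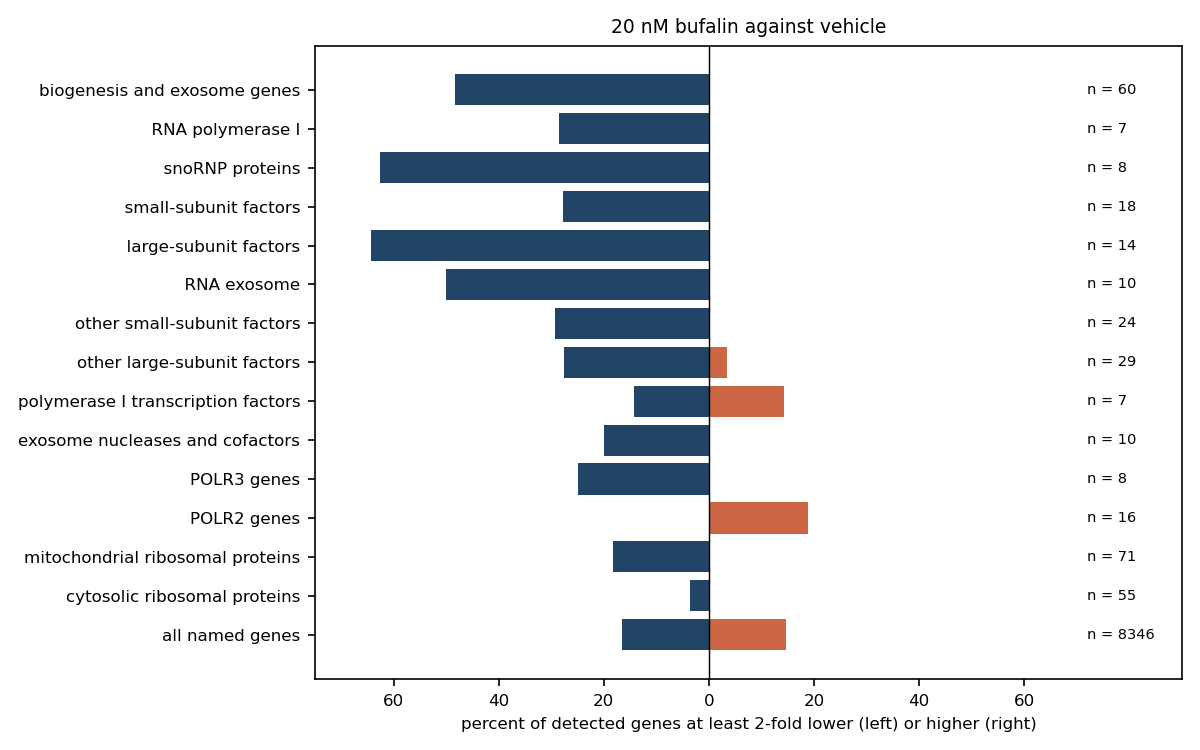
Percent of detected genes at least 2-fold lower (left of 0) or higher (right of 0) at 20 nM against vehicle for the ribosome biogenesis and exosome genes, their role groups, related lists and all named genes, with the number of detected genes. The members and their role groups extend to the left only, by 48.3% for all 60 together, against 16.6% to the left and 14.7% to the right for all named genes.

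Genes of the MYC network were measured on the same arrays. MYC had signals of 2440 with vehicle, 1520 at 10 nM and 687 at 20 nM, and was 1.60-fold and 3.54-fold lower at the 2 doses. MXD1 and MNT, which encode repressors that compete with MYC for MAX, had 46.8, 124 and 190 and 165, 319 and 396, and at 20 nM were 4.07-fold and 2.40-fold higher. Without background correction neither was past 2-fold, with log2 fold changes of 0.92 and 0.87. MAX had 67.1, 41.0 and 50.1, a log2 fold change of -0.42 at 20 nM. Of 9 detected genes of this list, 3 (33.3%) were past 2-fold downward at 20 nM and 3 (33.3%) upward, beside 16.6% and 14.7% of all named genes. The upward genes were MXD1, MNT and MGA, and MGA lay at the edge of the threshold. Besides MYC, the lower ones were MXI1 and MXD3, of the same family of repressors as MXD1, which were not detected at 20 nM and were at least 1.37-fold and 1.68-fold lower. The part of these factors in the levels of the assembly genes was not tested.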

How the data were processed

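Gene expression was measured with Illumina bead arrays, 1 per treatment. The deposited table gives an intensity on a linear scale for 47323 probes, not normalized per the file headers, and a detection p-value per probe and array, as deposited. The submitters' processing notes name BeadStudio 3.0, and any background subtraction by that software was not given in the sources used here. A second deposited table holds 13753 of the probes with equal values (41259 of 41259, no tolerance). Only its probes are named, through a platform annotation with symbols updated by gene identifier against RefSeq, which changed no member's symbol.

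Background was removed with the normexp model from the detection p-values (limma 3.58.1, R 4.3.3), an offset of 16 was added, and the 3 arrays then underwent quantile normalization on all probes before conversion to log2. Detected probes numbered 14664 with vehicle, 14735 at 10 nM and 14612 at 20 nM. This scale understates differences of dim genes. A probe detected on 1 array of a pair gives "at least N-fold": its bright value against the higher of its dim value and the lowest signal of any detected probe on the dim array. The bright value is taken as measured, so the bound holds on this scale only. Genes with such a bound are counted at their values unless stated. Steps were run on simulated arrays made from the vehicle array. That check covers the sign and order of known folds, not their size or the counts at 2-fold.

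The members and lists were chosen with earlier results of these data known. All members are described; per-array values are given for the 4 farthest from vehicle in each role group, for all polymerase I and exosome subunits, for the brightest and for those detected on some arrays, and outside the rule for up to 2 genes in each direction per list and for MYC. Other named genes were chosen after their values were seen. Alternatives in background, offset, normalization, detection, probe choice, bounds, members, symbols and fold threshold were run.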

Additional observations from a re-analysis of the deposited data

How the results depend on the processing

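The medians of the members kept their direction in each alternative run. Over the 5 ways of scaling the arrays, the median at 20 nM against vehicle ranged from -0.94 to -0.72, at 10 nM from -0.58 to -0.43, and between the doses from -0.47 to -0.29. Counts at 2-fold depended on how background was treated. Without background correction, the members at least 2-fold lower numbered 19 at 20 nM, 2 at the lower dose and 3 from the lower to the higher dose, beside 29, 9 and 8, and all named genes gave 5.84%, 0.401% and 0.793%. With an offset of 50 the lower counts were 4 at 10 nM and 3 between the doses (1.18% and 2.05% of all), and in the unnormalized deposited intensities they were 2 and 3 (0.401% and 1.01% of all). A larger offset or a retained background shrinks folds by construction. At a 1.5-fold threshold, 28 members were lower at 10 nM and 19 between the doses (16.5% of all), and 1 was higher at 20 nM and 2 between the doses (27.5% and 12.7% of all). The higher share of all 2-fold calls at 10 nM, 66.4%, was 76.7% with an offset of 50, 83.8% when background was kept and 86.3% unnormalized, and between the doses it was 36.0%, or 24.7% under median scaling. The median of polymerase I transcription factors at 20 nM turned to -0.04 under median scaling and to -0.31 over all probes, and the cause was not tested. Of 2836 values of single genes under the alternatives, 144 moved by more than the pooled spread between probes and 0 of the called ones turned in sign. No paired analysis was possible because each group has 1 array, and for the same reason no replicate could be left out.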
